A study of Mus musculus with 9 samples.

Results

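The genes described here set the G1/S restriction point: the D-type cyclins Ccnd1, Ccnd2 and Ccnd3, the E-type cyclins Ccne1 and Ccne2, the kinases Cdk4 and Cdk6, the CDK inhibitors Cdkn1a (p21) and Cdkn1b (p27), and the retinoblastoma gene Rb1. They were chosen by name, with earlier results of these data known. Of the 10 genes, 9 were analysed among the 15384 genes of the count table, and Ccnd2 was not analysed here. All 9 passed the filter on low counts in each comparison, with 143 to 19172 counts per library. MyC-CaP is a mouse prostate cancer line that comes from a tumor driven by a MYC transgene, and the labels give its cell type as epithelial-like. ASPN (asporin) is a secreted protein of the tumor stroma. RNA was sequenced from cultures starved in medium free of serum and calcium, at 0, 12 and 24 hours of exposure to 100 ng/mL recombinant mouse ASPN, with 3 biological replicates per time. The labels name ASPN as the treatment at time 0 as well. No untreated culture of 12 or 24 hours was used, so ASPN and the hours in culture cannot be told apart. All replicates are cultures of a single line, and p-values measure the spread between such cultures only.

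As background, D-type cyclins are made in response to growth factors and activate CDK4 and CDK6, which phosphorylate the RB protein and so free E2F transcription factors to switch on the genes of S phase. Cyclin E with CDK2 completes this step. p21 and p27 bind and inhibit cyclin-CDK2 complexes, and also take part in the assembly of cyclin D-CDK4 complexes. Much of this control acts on protein stability and phosphorylation, which mRNA counts do not measure.

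The deposited counts totaled 41881191 to 52993821 per library, so that 3 counts are worth 0.0566 to 0.0716 CPM (counts relative to the library total). The mRNAs of the 13 genes that mitochondrial DNA encodes took 2.60% to 2.71% of all counts in the time 0 libraries, 2.63% to 2.85% in those of 12 hours and 0.113% to 0.203% in those of 24 hours. The part of this drop in the results at 24 hours was not tested, apart from leaving those genes out of the scaling, which changed no call of the 9 genes. Of the epithelial markers, Krt8 (24.75 to 42.27 CPM) was present, whereas Krt18, Epcam and Cdh1 were under 1 CPM in every library. The 3 leukocyte and 3 endothelial markers measured were also under 1 CPM throughout, as were 3 of 4 fibroblast markers, the exception being Pdgfra at 8.58 to 13.79 CPM.

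The promoters of the 2 kinase genes are printed because the kinases differed in the timing of their rise with TMM scaling. Those of Cdkn1a are printed because it had the greatest change of the 9 genes. Each is the RefSeq window on GRCm38.p6 from 250 bases before to 50 after a transcription start, written 5′ to 3′ in the direction of the gene. Capitals mark E-boxes (CACGTG, the word that MYC with MAX binds), GC boxes (GGGCGG or its complement CCGCCC, bound by SP1) and TATA boxes (TATAAA), searched on both strands. Cdk4 and Cdk6 are on the plus strand at chr10:127063285-127063584 and chr5:3343643-3343942, and Cdkn1a is on the plus strand with an upstream start at chr17:29090729-29091028 and a downstream start at chr17:29093519-29093818.
Cdk4: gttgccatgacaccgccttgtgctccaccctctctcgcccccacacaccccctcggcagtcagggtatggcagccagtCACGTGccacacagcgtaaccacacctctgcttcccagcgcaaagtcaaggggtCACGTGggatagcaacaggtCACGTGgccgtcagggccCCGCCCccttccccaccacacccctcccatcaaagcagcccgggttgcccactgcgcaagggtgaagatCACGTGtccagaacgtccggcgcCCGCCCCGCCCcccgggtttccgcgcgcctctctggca
Cdk6: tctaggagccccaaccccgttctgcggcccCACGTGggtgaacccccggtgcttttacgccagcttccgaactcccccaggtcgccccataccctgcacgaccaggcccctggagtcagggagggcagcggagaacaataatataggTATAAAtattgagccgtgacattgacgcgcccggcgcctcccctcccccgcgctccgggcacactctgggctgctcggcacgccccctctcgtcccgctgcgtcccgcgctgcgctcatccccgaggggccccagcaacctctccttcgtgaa
Cdkn1a, upstream start: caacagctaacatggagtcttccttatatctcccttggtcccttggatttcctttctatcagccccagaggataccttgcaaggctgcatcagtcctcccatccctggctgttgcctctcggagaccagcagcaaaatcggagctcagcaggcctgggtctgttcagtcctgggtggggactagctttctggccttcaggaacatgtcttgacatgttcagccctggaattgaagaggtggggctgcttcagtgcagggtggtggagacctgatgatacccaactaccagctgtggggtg
Cdkn1a, downstream start: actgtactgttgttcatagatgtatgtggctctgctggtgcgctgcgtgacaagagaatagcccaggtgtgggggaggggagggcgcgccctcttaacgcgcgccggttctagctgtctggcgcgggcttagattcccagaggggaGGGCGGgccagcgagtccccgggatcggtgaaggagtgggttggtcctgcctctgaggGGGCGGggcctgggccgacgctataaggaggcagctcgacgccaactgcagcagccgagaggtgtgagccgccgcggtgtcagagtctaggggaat
The Cdk4 window held 4 E-boxes, which begin at positions -172, -118, -98 and -11 relative to the start, and 3 GC boxes, of which the pair after the start shares 1 base. Of 32851 RefSeq promoter windows of this length, 7.15% held an E-box and 8 (0.0244%) held 4 or more. Cdk6 had 1 E-box, at position -220, and 1 TATA box (13.6% of all windows), which begins at position -103. Neither was seen at Cdkn1a, where the upstream window held none of the searched words and the downstream one held 2 GC boxes (35.7% of all windows held at least 1). Windows were given for 6 of the 9 genes, 8 windows in all. Ccne1 had 4 GC boxes, Cdkn1b 1, and Ccnd3 2 at each of 2 starts. The E2F words TTTCCCGC, TTTCGCGC, TTTGCCGC and TTTGGCGC, which 2.26% of all windows contain, were in none of the 8. These are matches of letters and not measured binding sites.

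Over the 9 genes, little changed by 12 hours and more by 24 hours. In what follows a gene passed when its adjusted p was 0.05 or less in the quasi-likelihood test of edgeR, adjusted by Benjamini-Hochberg over all genes tested, and it was called when its fold change was also at least 1.5. At 12 hours 0 of the 9 genes were called, against 1.6% of all genes (1.5% higher and 0.0964% lower), and 2 passed, both higher (Cdk6 and Ccnd1), against 10.3% of all genes (6.85% higher and 3.47% lower). These same 2 genes were the ones with an unadjusted p under 0.05, while 0 of the 9 were called with DESeq2. They were also the 2 whose libraries did not overlap between the times, against 27.1% of all genes. At 24 hours 3 were called relative to time 0, Cdkn1a and Rb1 higher and Ccnd1 lower, against 28.8% of all genes (12.0% higher and 16.8% lower). Of the 9 genes, 7 passed, against 70.9% of all genes (34.4% higher and 36.5% lower): Ccnd3, Ccne2, Cdk4, Cdk6, Cdkn1a and Rb1 higher and Ccnd1 lower. Groups did not overlap for 8 of the 9, against 74.0% of all genes. The median log2 fold change was 0.26 over the 9 genes and -0.02 over all genes tested. Between 12 and 24 hours 3 were called, again Cdkn1a, Rb1 and Ccnd1, against 25.7% (10.4% higher and 15.3% lower), and 7 passed, against 71.3% (35.7% higher and 35.6% lower). Here 6 of the 9 did not overlap, against 73.8%, and the median was 0.22 (0.00 over all genes). Since so many genes moved at 24 hours, a share of 3 or 7 in 9 is near the background. The comparisons share libraries, so the 24-hour values relative to time 0 and to 12 hours are not separate evidence.

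**Figure D1:**
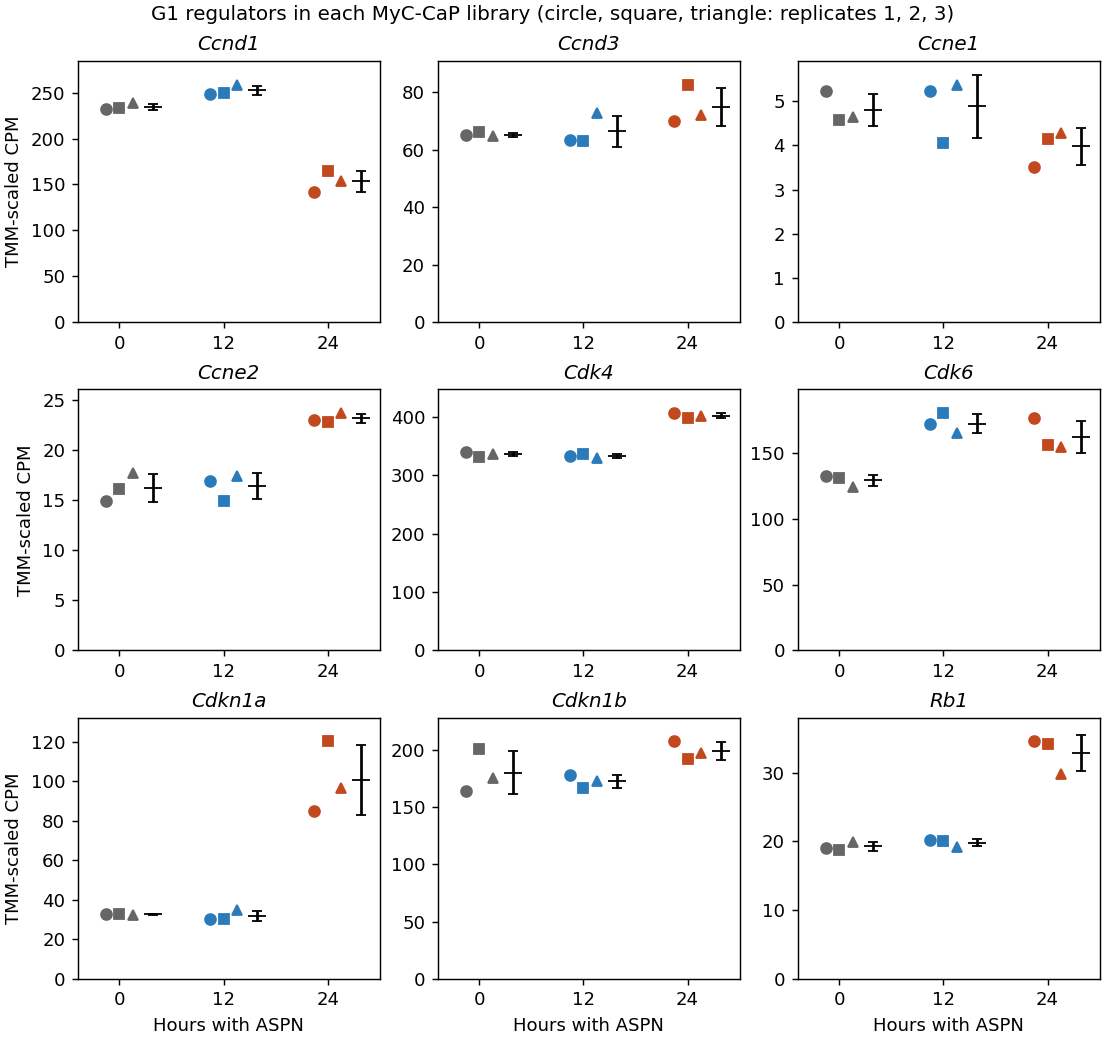
Level of each G1 regulator in the 9 libraries, as CPM after TMM scaling (vertical axis from 0), at 0, 12 and 24 hours with ASPN; symbols are replicates 1, 2 and 3, and black bars are the mean and SD (n = 3). Cdkn1a, Rb1 and Ccne2 were higher and Ccnd1 lower in every 24-hour library than in any earlier one, and Cdk6 was already higher at 12 hours.

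Ccnd1 (cyclin D1) and Ccnd3 (cyclin D3) moved in opposite directions at 24 hours with TMM scaling, whereas with total counts Ccnd3 was at -0.02 relative to time 0 and did not pass. Ccnd1 (ENSMUSG00000070348.5; chromosome 7, 144929931 to 144939925, minus strand) was at 232, 233 and 238 CPM at time 0, at 249, 250 and 259 CPM at 12 hours and at 142, 164 and 154 CPM at 24 hours. The 3 times did not overlap: 12 hours was slightly above time 0, and every 24-hour library was well below both. Its 12-hour log2 fold change of 0.11 (SE 0.03) passed, at an adjusted p of 0.033 in edgeR's quasi-likelihood test, and from 12 to 24 hours Ccnd1 fell by 0.70 on the log2 scale (SE 0.05, edgeR adjusted p = 2.4e-08). The 12-hour value no longer passed with total counts, in the fit of all 9 libraries, with the replicate block or in 5 of the 6 fits that each left out 1 library (adjusted p up to 0.21, edgeR), although its size stayed at 0.089 to 0.12 on the log2 scale. Relative to time 0, the 24-hour value was -0.61 (SE 0.05), close to the 1.5-fold limit, and it fell short at -0.56 without replicate 1 of 24 hours. Ccnd3 (ENSMUSG00000034165.16; chromosome 17, 47505051 to 47599691, plus strand) had 65.1, 66.1 and 64.7 CPM at time 0, 63.5, 63.1 and 72.7 CPM at 12 hours and 70.2, 82.6 and 72.2 CPM at 24 hours. Its 24-hour libraries lay above time 0 but overlapped those of 12 hours. The log2 fold change at 24 hours was 0.20 (SE 0.06), a 1.15-fold difference from time 0, with an adjusted p of 0.0071 (edgeR). It was 0.13 without replicate 2 of 24 hours and 0.32 after the correction for length and GC content. From 12 to 24 hours it was 0.19 (SE 0.07, adjusted p = 0.019, edgeR), which did not pass without replicate 1 or 2 of 12 hours or replicate 2 of 24 hours (log2 of 0.12 to 0.16, adjusted p of 0.077 to 0.095, edgeR), and was 0.31 with the length and GC correction.

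The E-type cyclins, encoded by Ccne1 and Ccne2, activate CDK2 late in G1, and only Ccne2 passed at 24 hours. Ccne2 (ENSMUSG00000028212.16; chromosome 4, 11191351 to 11204779, plus strand) was at 14.9, 16.1 and 17.7 CPM at time 0, 16.9, 14.9 and 17.4 CPM at 12 hours and 23.0, 22.8 and 23.7 CPM at 24 hours. The earlier times were mixed with each other, and the 24-hour libraries were above all of them. Ccne2 rose 1.43-fold from time 0 to 24 hours (log2 0.51, SE 0.07, adjusted p = 2.7e-05 by edgeR's quasi-likelihood test), just under the limit for a call, which it met without replicate 3 of time 0 (0.59). Ccne1 (ENSMUSG00000002068.16; chromosome 7, 38097984 to 38107534, minus strand), the least abundant of the 9 genes with 143 to 253 counts, was at 5.23, 4.56 and 4.63 CPM at time 0, 5.23, 4.06 and 5.37 CPM at 12 hours and 3.51, 4.15 and 4.29 CPM at 24 hours. All 24-hour libraries were below those of time 0, but the log2 fold change of -0.27 (SE 0.13) did not pass (adjusted p = 0.073, edgeR). It passed with total-count scaling (-0.49) and in the fit corrected for length and GC content (-0.36).

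Cdk4 and Cdk6, the kinases that D-type cyclins activate, rose at different times with TMM scaling. Cdk6 (ENSMUSG00000040274.11; chromosome 5, 3341485 to 3531008, plus strand) was at 133, 131 and 125 CPM at time 0, 172, 181 and 165 CPM at 12 hours and 177, 156 and 155 CPM at 24 hours. Both later times lay above time 0 and overlapped each other. Cdk6 rose 1.34-fold by 12 hours (log2 0.42, SE 0.04, adjusted p = 5.7e-07 by edgeR's quasi-likelihood test), the clearest early change among the 9 genes. At 24 hours it was 1.26-fold above time 0 (log2 0.33, SE 0.05, adjusted p = 9.3e-05, edgeR), and the difference from 12 hours did not pass (log2 -0.07, SE 0.05, adjusted p = 0.25, edgeR). That difference was -0.14 with an adjusted p of 0.0057 (edgeR) without replicate 1 of 24 hours. Cdk4 (ENSMUSG00000006728.12; chromosome 10, 127063534 to 127067920, plus strand) had 340, 332 and 337 CPM at time 0, 334, 337 and 329 CPM at 12 hours and 407, 398 and 402 CPM at 24 hours. Its libraries were tightly grouped, with no shift at 12 hours and every 24-hour library higher. Cdk4 rose 1.20-fold from time 0 to 24 hours (log2 0.26, SE 0.04, adjusted p = 3.3e-05, edgeR) after a 12-hour value of -0.01 (SE 0.03). With total counts neither Cdk4 (0.04) nor Cdk6 (0.11) passed at 24 hours relative to time 0, whereas Cdk6 at 12 hours (0.40) did.

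**Figure D2:**
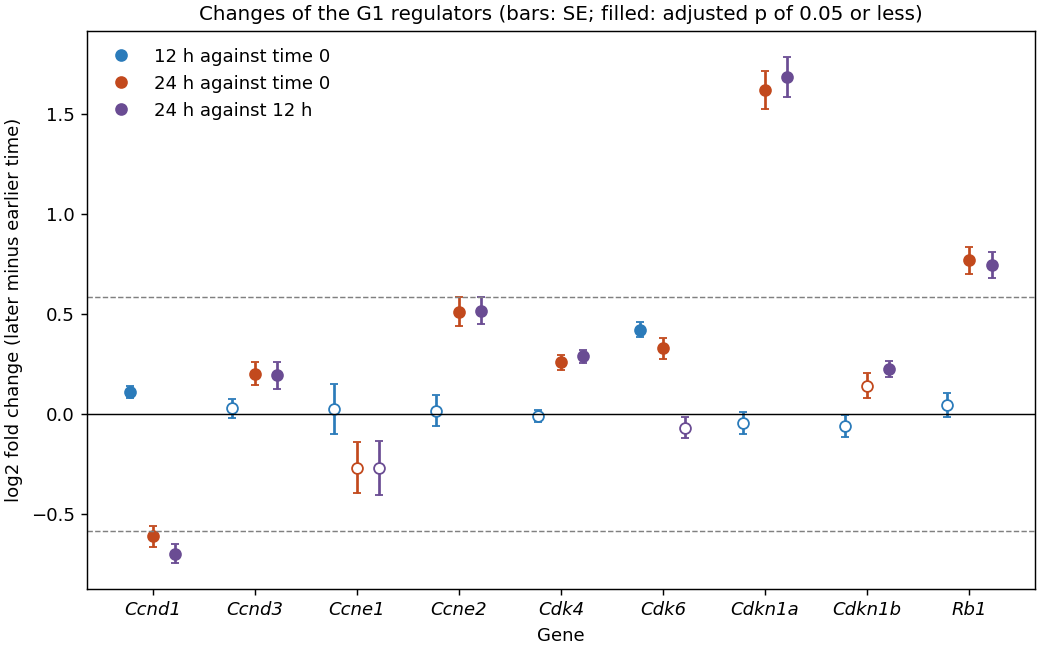
The log2 fold change of each G1 regulator in the 3 comparisons (later minus earlier time; points are edgeR estimates from 3 libraries per time, bars are SE). Filled points had an adjusted p of 0.05 or less and dashed lines mark a fold change of 1.5; Cdkn1a stands highest, at 1.62 and 1.69, and Ccnd1 lowest, at -0.61 and -0.70.

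The inhibitor Cdkn1a had the greatest change of the 9 genes, and Cdkn1b changed little. Cdkn1a (ENSMUSG00000023067.14; chromosome 17, 29090976 to 29100727, plus strand), a target gene of p53, was at 32.8, 32.9 and 32.4 CPM at time 0, 30.2, 30.1 and 34.8 CPM at 12 hours and 84.9, 120.1 and 96.7 CPM at 24 hours. The earlier times overlapped, and the lowest 24-hour library was above them all, although the 24-hour libraries varied most of any gene here (coefficient of variation 17.8%). Cdkn1a rose 3.08-fold from time 0 to 24 hours (log2 1.62, SE 0.10, adjusted p = 6.6e-09 by edgeR's quasi-likelihood test), and the log2 fold change was 1.47 to 1.73 with single libraries left out. At 12 hours it was -0.04 (SE 0.06). Cdkn1b (ENSMUSG00000003031.14; chromosome 6, 134920401 to 134925513, plus strand) had 164, 201 and 176 CPM at time 0, 178, 167 and 173 CPM at 12 hours and 208, 192 and 198 CPM at 24 hours. The 24-hour libraries were above those of 12 hours but overlapped time 0, where replicate 2 was high. Its log2 fold change from 12 to 24 hours was 0.22 (SE 0.04, adjusted p = 2.7e-04, edgeR), whereas that from time 0 was 0.14 (SE 0.06, adjusted p = 0.061, edgeR) and did not pass. This value lay at the threshold: it passed with DESeq2 (0.15, adjusted p = 0.028), with RLE or upper-quartile factors, without the filter, with all 9 libraries in one fit and with limma-voom (adjusted p up to 0.0499), and without replicate 2 of time 0 (0.24, adjusted p = 0.0016, edgeR) or replicate 2 of 24 hours (0.17).

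Rb1, the pocket protein that these kinases inactivate, rose between 12 and 24 hours, and its 12-hour value did not pass (log2 0.04, SE 0.06). Rb1 (ENSMUSG00000022105.6; chromosome 14, 73183673 to 73325822, minus strand) was at 19.1, 18.8 and 19.9 CPM at time 0, 20.1, 20.1 and 19.2 CPM at 12 hours and 34.5, 34.1 and 29.8 CPM at 24 hours. The 24-hour libraries stood clear of the 6 others, which overlapped. Rb1 rose 1.68-fold from 12 to 24 hours (log2 0.75, SE 0.07, adjusted p = 2.8e-07 by edgeR's quasi-likelihood test) and 1.70-fold from time 0 (log2 0.77, SE 0.07). With total counts both values passed but fell short of 1.5-fold (0.52 and 0.55).

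How the libraries are scaled matters for the small 24-hour changes. The TMM factors lay between 1.04 and 1.07 for the libraries of time 0 and 12 hours and between 0.898 and 0.911 for those of 24 hours. Scaling by total counts instead moved the median log2 fold change of all genes to -0.24 at 24 hours relative to time 0 and to -0.22 relative to 12 hours, and the split of called genes went from 1374 higher and 1924 lower to 698 and 3008 relative to time 0, and from 1184 and 1740 to 484 and 2830 relative to 12 hours. On that scale Ccnd1 (-0.84), Cdkn1a (1.40), Rb1 (0.55) and Ccne2 (0.29) still passed relative to time 0, while Cdk4 (0.04), Cdk6 (0.11) and Ccnd3 (-0.02) did not. Relative to the shifted median, these values were -0.60 for Ccnd1, 1.64 for Cdkn1a, 0.79 for Rb1, 0.53 for Ccne2, 0.28 for Cdk4, 0.35 for Cdk6 and 0.22 for Ccnd3. From 12 to 24 hours Cdkn1b (0.00) and Cdk4 (0.07) did not pass with total counts. Cdk6 (-0.29) and Ccne1 (-0.50) passed as lower, as did 51.6% of all genes on that scale. Relative to the shifted median of this comparison, the values were 0.22 for Cdkn1b, 0.29 for Cdk4, -0.07 for Cdk6 and -0.28 for Ccne1.

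Per kilobase of annotated exon, Cdk4 had the highest level at every time, at 103.5 ± 1.2 CPM per kb (SD, n = 3) at time 0. Ccnd1 (49.8 ± 0.68) and Cdkn1b (39.7 ± 4.2) came next. Cdk6 (9.25 ± 0.30) and Cdkn1a (9.21 ± 0.073) had overlapping libraries, and below them were Ccnd3 (7.44 ± 0.082), Ccne2 (4.65 ± 0.41), Rb1 (3.20 ± 0.097) and Ccne1 (1.81 ± 0.14 CPM per kb), each without overlap with its neighbor. At 12 hours the order was the same, but Cdk6 (12.4 ± 0.54) no longer overlapped Cdkn1a (8.92 ± 0.75). At 24 hours Cdk4 (123.8 ± 1.4) was followed by Cdkn1b (43.8 ± 1.7) and then by Ccnd1 (32.6 ± 2.4) and Cdkn1a (28.3 ± 5.0), which overlapped. The kinase Cdk6 (11.6 ± 0.88), Ccnd3 (8.55 ± 0.76), Ccne2 (6.63 ± 0.14), Rb1 (5.46 ± 0.44) and Ccne1 (1.496 ± 0.16 CPM per kb) completed it. The order depends on the length used. Per kilobase of the longest transcript, a setting added after the data were seen, Cdkn1a (15.7 CPM per kb) was above Cdk6 (11.2 CPM per kb) at time 0 already. Ccnd3 (16.9 CPM per kb) was above both. At 24 hours the mean of Cdkn1a (48.35 ± 8.61 CPM per kb) was on that measure above those of Cdkn1b (43.75 ± 1.74) and Ccnd1 (40.98 ± 3.04).

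Shares within a pair of related genes do not depend on the scaling of a library. Ccnd1 made up 87.0% ± 0.25 (SD, n = 3) of the summed Ccnd1 and Ccnd3 counts per kb at time 0, 87.6% ± 0.65 at 12 hours and 79.2% ± 0.61 at 24 hours. Ccne1 made up 28.1% ± 3.1, 28.0% ± 1.4 and 18.4% ± 1.5 of the E-type pair. Cdk4 made up 91.8% ± 0.27, 89.3% ± 0.31 and 91.4% ± 0.52 of the kinase pair, so that its share was lowest at 12 hours. Cdkn1a made up 18.9% ± 1.6, 19.0% ± 1.3 and 39.1% ± 5.1 of the inhibitor pair, the widest move of the 4 shares. The 24-hour libraries did not overlap either earlier time for the Ccnd1, Ccne1 and Cdkn1a shares, nor the 12-hour libraries the others for the Cdk4 share. Each of these 8 differences had a two-sided exact permutation p of 0.1, the smallest that 3 libraries against 3 can give, or 0.15 adjusted over the 12 tests, so none passed. The other 4 differences overlapped, with exact permutation p-values of 0.3 to 1.0. The sizes of the shares depend on the length used for each gene. Per kilobase of the longest transcript, a setting added after the data were seen, Cdkn1a was below Cdkn1b at time 0 (15.73 and 39.65 CPM per kb). At 24 hours the mean of Cdkn1a was above that of Cdkn1b (48.35 and 43.75 CPM per kb), whereas per kilobase of exon it was below.

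**Figure D3:**
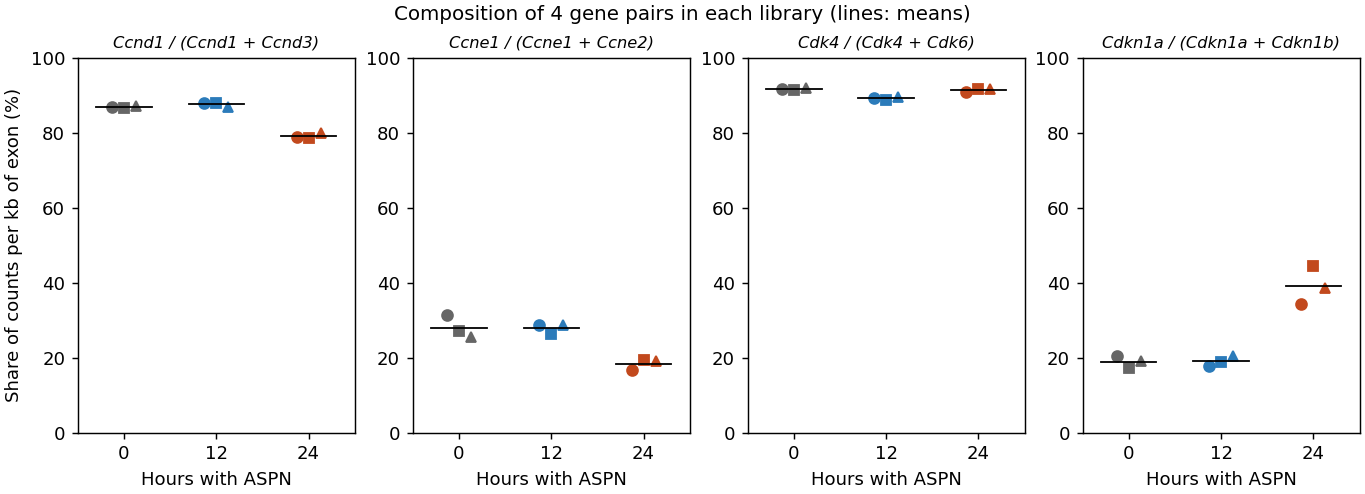
Share of the first gene in the summed counts per kilobase of exon of each pair (percent, axis from 0 to 100) in every library at 0, 12 and 24 hours with ASPN; symbols are replicates 1, 2 and 3, and lines are means of 3 libraries. At 24 hours the Cdkn1a share lay at 34.4% to 44.5% and the Ccnd1 share at 78.8% to 79.9%, with no overlap with earlier libraries.

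Whether reads were counted by strand is not given in the sources used here, and 7 of the 9 genes share exon sequence with a gene on the opposite strand, so reads of such pairs might be mixed. Ccnd1 shares 1100 bp (23.4% of its exon sequence) with LTO1, which was at 10.6 CPM at 24 hours and changed by a log2 of -0.23 (SE 0.11) from time 0. Cdk4 shares 641 bp (19.7%) with Tspan31, which had 75.8 CPM and a log2 fold change of 0.03 (SE 0.05). Ccne2 shares 609 bp (17.4%) with Ints8, which had 37.9 CPM, more than Ccne2 itself, and rose by 0.25 on the log2 scale (SE 0.07, adjusted p = 0.0060, edgeR). Rb1 shares 408 bp (6.78%) with Lpar6, a lysophosphatidic acid receptor gene within the Rb1 locus. Lpar6 went the other way: its mean was 9.24 CPM at time 0, 11.4 CPM at 12 hours and 1.95 CPM at 24 hours, or -2.24 on the log2 scale relative to time 0 (SE 0.14, adjusted p = 1.0e-08 by edgeR's quasi-likelihood test). Rb1 also shares 488 bp with Rcbtb2, and Ccnd3 shares 361 bp with Bysl, and their log2 fold changes at 24 hours relative to time 0 were 0.19 and 0.15. Cdk6 shares 368 bp with Gm17590 and Cdkn1a 273 bp with AC167363.2, which were not analysed here.

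The other genes of the pathway were taken from 7 lists with 55 genes, of which 54 were tested and E2f6 was too low. The lists were written by hand with earlier results of these data known, so their shares are given as a description. At 12 hours 2 of the 54 passed as higher and 5 as lower and 0 were called (16 had an unadjusted p under 0.05 in edgeR, and DESeq2 called 0 as well), against 6.85%, 3.47% and 1.6% of all genes. The higher ones were the CDK4/6 inhibitor gene Cdkn2b (log2 0.50, SE 0.09) and the E2F repressor E2f7 (0.40, SE 0.09). The lower ones were Cdkn2c (-0.38), Rrm2 (-0.20), Ccnb2 (-0.18), Tfdp2 (-0.15) and Ccnb1 (-0.15). At 24 hours relative to time 0, 29 passed as higher and 15 as lower, against 34.4% and 36.5% of all genes. Of the 54, 19 were called higher and 2 lower, against 12.0% and 16.8%, and the median log2 fold change was 0.26, against -0.02 over all genes. With total counts, 22 passed as higher and 22 as lower, against 20.7% and 51.7% of all genes on that scale, and 8 were called each way, against 6.1% higher and 26.3% lower, with a median of 0.04 against -0.24. From 12 to 24 hours 32 passed as higher and 13 as lower, against 35.7% and 35.6% of all genes, or 21 and 20 with total counts, against 20.8% and 51.6%.

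The INK4 inhibitors, which bind CDK4 and CDK6 alone, split at 24 hours. Cdkn2c (p18) dropped from a mean of 73.0 CPM to 18.1 CPM and so fell by 2.01 on the log2 scale (SE 0.06, adjusted p = 2.6e-11 by edgeR's quasi-likelihood test). Cdkn2a, which encodes p16 and p19ARF, rose from 202.8 to 319.1 CPM (log2 0.65, SE 0.04), and Cdkn2d (p19) from 15.3 to 26.6 CPM (log2 0.80, SE 0.07). Cdkn2b passed with a smaller rise (0.30, SE 0.11), and Cdkn1c (p57) was at 0.269 CPM. Of these 5 inhibitor genes, 3 passed as higher and 1 as lower, where 70.9% of all genes passed, and 2 and 1 were called, where 28.8% were. With total counts Cdkn2a (0.43) and Cdkn2d (0.57) passed without a call, and Cdkn2b (0.08) did not pass. On that scale 20.7% of all genes passed as higher and 6.1% were called higher.

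Of the kinases and activators around CDK2, 3 of 5 passed as higher and 1 as lower, near the 70.9% of all genes that passed, or 1 and 1 with total counts. Mnat1, a part of the CDK-activating kinase, was called (69.5 to 118.2 CPM, log2 0.77, SE 0.04) with TMM scaling but not with total counts (0.54), whereas its partners Cdk7 (-0.15, SE 0.05) and Ccnh (0.07, SE 0.07, not passed) moved little. Cdk2 (0.26) and Cdc25a (0.34) rose less than 1.5-fold. The relatives of Rb1, Rbl1 (p107; 0.17, SE 0.09, adjusted p = 0.10 by edgeR) and Rbl2 (p130; -0.16, SE 0.06, adjusted p = 0.026 by edgeR), were not called, unlike Rb1.

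Among the 9 E2F and DP genes tested, 5 passed as higher and 1 as lower (E2f3, -0.31), against 34.4% and 36.5% of all genes, and 4 were called higher, against 12.0%; with total counts 4 passed each way, against 20.7% and 51.7%, and 2 were called higher, against 6.1%. The 4 called genes were the activators E2f1 (16.5 to 28.8 CPM, log2 0.81, SE 0.08) and E2f2 (4.79 to 8.78 CPM, log2 0.87, SE 0.13) and the repressors E2f5 (log2 0.63, SE 0.08) and E2f7 (log2 0.77, SE 0.09). Of 16 E2F target genes of S phase entry, 14 passed as higher and 1 as lower, against 34.4% and 36.5% of all genes, and 11 were called higher, against 12.0%, with a median log2 fold change of 0.64, against -0.02. The called genes include those of cyclin A2 (Ccna2, 0.64), the licensing factor Cdt1 (0.86), the replication clamp Pcna (0.78), subunits of the replicative helicase (Mcm2, 0.66; Mcm4, 0.87; Mcm5, 1.05; Mcm6, 0.63; Mcm7, 0.64) and enzymes of nucleotide synthesis (Tyms, 1.07; Rrm1, 0.63). Rrm2 did not pass (-0.05), and Fbxo5, the gene of the APC/C inhibitor EMI1, passed as lower (-0.42). With total counts, 13 of the 16 targets passed as higher and 2 as lower, against 20.7% and 51.7% of all genes, and 5 were called higher and 1 lower, against 6.1% and 26.3%.

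The mitotic and proliferation genes went both ways at 24 hours, with 4 of 8 passing as higher and 3 as lower, against 34.4% and 36.5% of all genes. With total counts 2 and 4 passed, against 20.7% and 51.7%, and 1 was called higher and 2 lower, against 6.1% and 26.3%. The checkpoint kinase gene Bub1 was called (29.0 to 61.7 CPM, log2 1.09, SE 0.06). Mki67 (0.38), Foxm1 (0.40) and Ccnb2 (0.31) rose less than 1.5-fold, and Ccnb1 (-0.41), Plk1 (-0.42) and Top2a (-0.22) fell. Cdk1 did not pass (0.03, SE 0.06).

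Of 9 genes for the ubiquitin ligases that degrade G1 cyclins and CDK inhibitors, 7 passed as lower and 0 as higher at 24 hours relative to time 0, against 36.5% and 34.4% of all genes. With DESeq2 the counts were 6 and 0, against 3931 lower and 3892 higher of 14935 genes. With total counts they were 9 and 0, against 51.7% and 20.7% of all genes on that scale. From 12 to 24 hours 6 passed as lower and Cks1b as higher (0.13, SE 0.05), against 35.6% and 35.7%, but Cks1b did not pass with DESeq2 or with total counts (-0.10). Fbxw7, the receptor that targets cyclin E, fell from 64.5 to 16.7 CPM (log2 -1.95, SE 0.05, adjusted p = 6.9e-12 by edgeR's quasi-likelihood test). Of the 9, it alone was called, where 16.8% of all genes were called lower. The others were not called with TMM scaling: Fbxo31 (-0.48), Ambra1 (-0.47) and Fbxo4 (-0.36), which have been tied to the turnover of D-type cyclins, Skp2 (-0.18), which targets p27, and Fzr1 (-0.22) and Cul1 (-0.11). With total counts 4 were called lower, Fbxw7 along with Fbxo31 (-0.70), Ambra1 (-0.69) and Fbxo4 (-0.59), where 26.3% of all genes were. Cks1b (-0.03) and Rbx1 (0.01) did not pass relative to time 0 with TMM scaling.

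**Figure D4:**
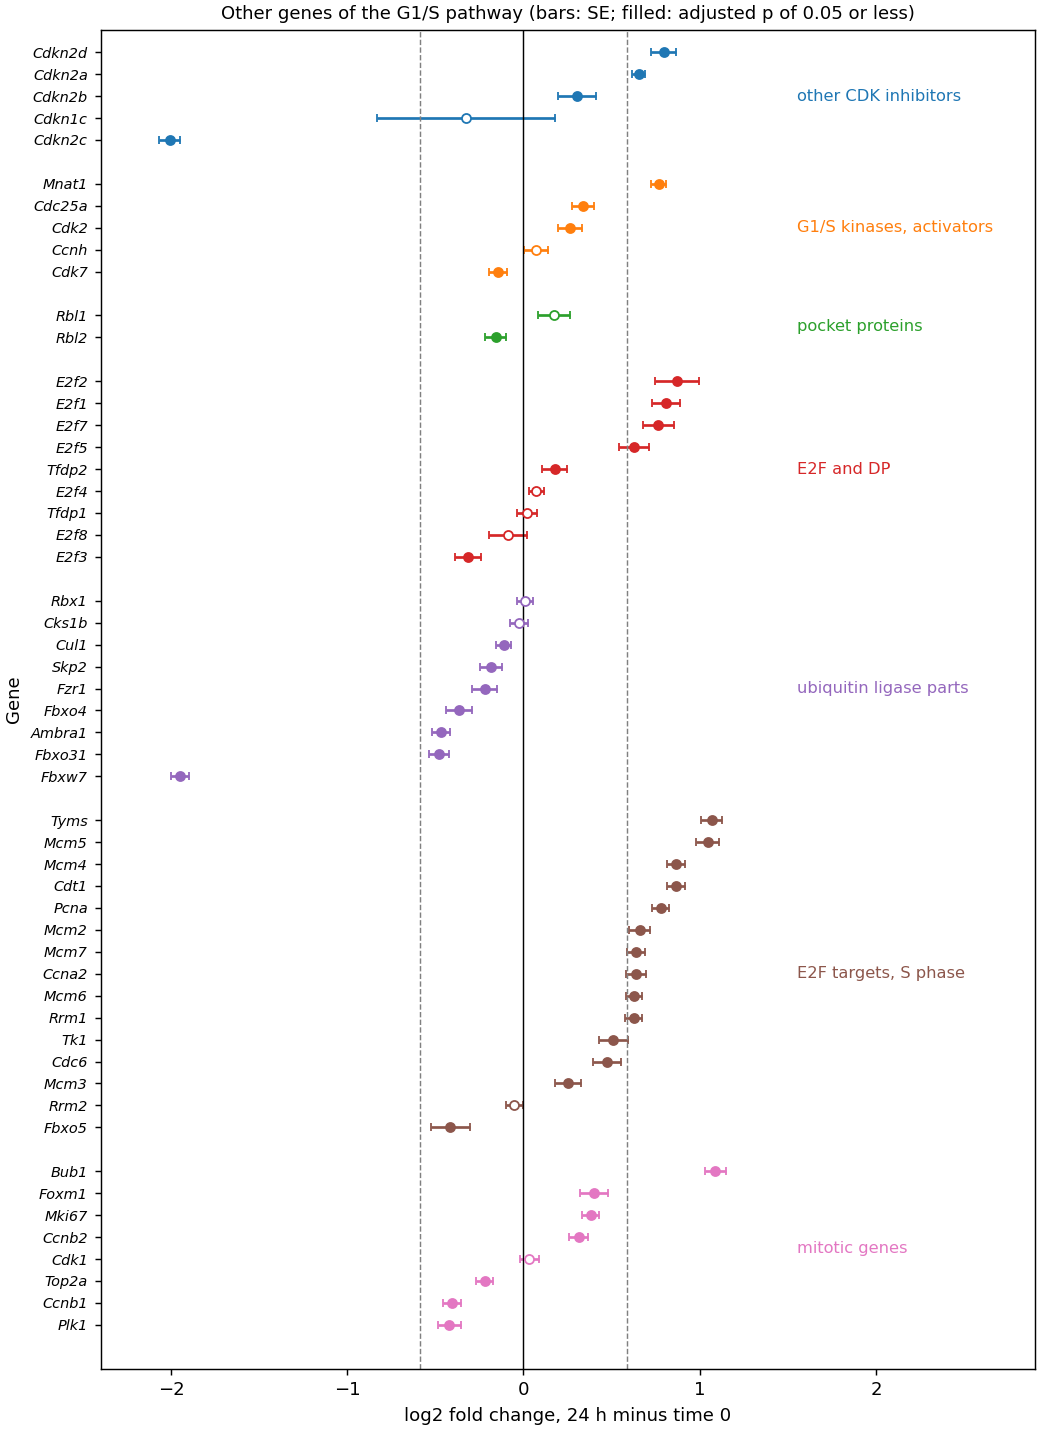
The log2 fold change at 24 hours relative to time 0 of 53 other genes of the G1/S pathway, grouped by list (edgeR estimates from 3 libraries per time, bars are SE). Filled points had an adjusted p of 0.05 or less and dashed lines mark a fold change of 1.5; Cdkn2c (-2.01) and Fbxw7 (-1.95) are the 2 called as lower.

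Genes with a pattern like that of a G1 regulator were found by Pearson's r of log2 CPM over the 9 libraries, among 8350 genes with a mean of at least 10 CPM. The 9 points share their library and come in 3 groups of time, and r is given as a description. Nearest to Ccnd1 were Coro1c (r = 0.9993), Slc35c1 (0.9980) and Foxd1 (0.9972), and to Cdk4 were Brk1 (0.9988), Btf3 (0.9982) and Rpl13a (0.9980). Cdkn1a was most like Efna1 (0.9966), Slc3a2 (0.9955) and Sap30 (0.9949), and Rb1 like Mapk9 (0.9978), Slc25a17 (0.9937) and Psma1 (0.9937). Slc3a2, for example, went from 313.3 and 308.5 CPM at 0 and 12 hours to 521.2 CPM at 24 hours. For Ccne1 and Cdkn1b r was lower, at 0.9702 for Ccne1 with Keap1, 0.9646 with Rnf41 and 0.9475 with Fam171a2, and at 0.9664 for Cdkn1b with Parp2, 0.9659 with Fubp1 and 0.9582 with Fam76b.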

How the data were processed

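RNA-Seq gene counts of 9 MyC-CaP libraries were used. The authors trimmed paired-end TruSeq mRNA reads with Cutadapt, aligned them to GRCm38.p6 with STAR and counted reads per gene with featureCounts. The deposited values are raw counts of 15384 genes. Gene positions and exon lengths come from GENCODE M21 on the same assembly (15374 genes matched). After filterByExpr and TMM scaling, genes were tested in R 4.3.3 by edgeR 4.0.16 (quasi-likelihood test, Benjamini-Hochberg adjustment over all genes tested), each comparison on its 6 libraries. CPM values are TMM scaled over 9 libraries, errors are SD of 3 libraries or SE. Named genes are the 9 members, pathway lists written by hand (named where called, otherwise mostly counted) and the 3 genes most like each of 6 members (Ccnd1, Ccne1, Cdk4, Cdkn1a, Cdkn1b, Rb1). The members and lists were chosen with earlier results of these data known. The calculation was tested on simulated data. Alternatives used DESeq2 1.42.0, limma-voom 3.58.1, other scalings and filters, a length and GC correction, a replicate block and single libraries left out. No 2 libraries of the same time matched within sampling noise (9 pairs, chi-square over degrees of freedom 3.48 to 18.2). The other libraries of the study were not analysed here. Some genes of the hand-written lists count in the totals but are not reported here by name.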

Additional observations from a re-analysis of the deposited data

How the results depend on the processing

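The number of the 9 genes called was 0, 3 and 3 (12 hours and 24 hours with time 0, 24 with 12 hours), and 2, 7 and 7 with the adjusted p alone. Ccnd1 at 24 hours fell short of 1.5-fold with upper-quartile scaling (-0.58) and the length and GC correction (-0.54), and Rb1 with total counts (0.55 and, relative to 12 hours, 0.52). Some values changed sign: with total counts, on which the median of all genes at 24 hours was -0.24 and -0.22, Ccne2 at 12 hours (-0.0034), and Ccnd3 (-0.021) and Cdkn1b (-0.081) at 24 hours relative to time 0 and Ccnd3 relative to 12 hours (-0.029), and with the length and GC correction Cdk6 from 12 to 24 hours (0.089, and 0.089 with the replicate block). With single libraries left out, the 12-hour values were -0.042 to 0.064 for Ccnd3, -0.048 to 0.14 for Ccne1, -0.041 to 0.086 for Ccne2 and -0.12 to 0.024 for Cdkn1b. The Ccnd1 share differed by -11.1 points (raw counts) or -10.9 points (longest transcript) at 24 hours relative to time 0 and by -12.0 or -11.9 relative to 12 hours. The Cdk4 share differed by -6.34 (raw counts) or -2.04 points (longest transcript) at 12 hours, and with raw counts by -0.971 from time 0 and 5.37 from 12 to 24 hours. Same-numbered libraries did not deviate together (correlations of -0.106 to 0.0565). With the replicate block 0, 3 and 3 genes were called, Ccnd1 at 12 hours had an adjusted p of 0.062 (edgeR), and Ccnd1 at 24 hours with the length and GC correction and the block was at -0.55. The causes were not tested. Ccne1, with 143 to 253 counts, had the fewest counts of the 9 genes.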

Other observations

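A ratio chosen after the values were seen set the D-type cyclins against the CIP/KIP inhibitors in each library, as summed Ccnd1 and Ccnd3 counts per kb over summed Cdkn1a and Cdkn1b counts per kb. It was 1.18 ± 0.098 (SD, n = 3; range 1.07 to 1.25) in the time 0 libraries, 1.31 ± 0.041 (1.26 to 1.34) in those of 12 hours and 0.570 ± 0.019 (0.548 to 0.583) in those of 24 hours. The cyclin mRNAs thus outnumbered the inhibitor mRNAs per kb in all 6 earlier libraries and were outnumbered in all 3 libraries of 24 hours. The ratio does not depend on library scaling, was not tested, and says nothing of protein levels.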
